A study of Canis lupus familiaris with 12 samples.

Results

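The genes described here were raised without glucose in HU-HSA-3 cells while their mean level in HU-HSA-2 cells changed within narrow limits. They were chosen from the deposited TPM values (a transcript level scaled for gene length and library total) by D, the log2 ratio of the mean TPM plus 1 at 0 mM to the mean TPM plus 1 at 25 mM glucose. A member had a mean TPM of at least 2 in each cell line, a D of at least 0.6 in HU-HSA-3 with all 3 libraries at 0 mM above all 3 at 25 mM, and a D between -0.2 and 0.2 in HU-HSA-2. Of 30951 Ensembl gene identifiers, 9916 reached the level floor in both lines and 55 were members. The tables give identifiers without gene names, and 0 of the 55 members matched a symbol in the sources used here. Members are therefore given by their rank in D, with identifiers for the first 2, and their functions and sequences are not described.

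HU-HSA-2 and HU-HSA-3 are canine hemangiosarcoma cell lines, each derived from the splenic tumor of a different dog. Both were kept for 48 h in medium with 25 mM glucose or without glucose (0 mM), as triplicate cultures per the methods of the study, and stranded mRNA libraries were sequenced, giving 4 groups and 12 libraries. Each line stands for 1 tumor, so a difference between the lines cannot be told apart from a difference between those tumors or cultures. The p-values for the response of a line rest on the spread between its triplicate cultures. Those for contrasts between the lines pool this spread over the cultures of both lines.

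Hemangiosarcoma arises from the endothelial cells that line blood vessels. Cells that lose glucose lose a main source of energy, of carbon for biosynthesis and of precursors for protein glycosylation. One known answer is the integrated stress response, in which general translation is lowered while the transcription factor ATF4 is translated more and turns on genes of amino acid supply, redox balance and cell death. Of the endothelial markers, PECAM1, which encodes CD31, lay between 997.93 and 1134.86 TPM in HU-HSA-2 and between 329.82 and 440.6 TPM in HU-HSA-3. KDR, a receptor of vascular endothelial growth factor, lay between 57.81 and 76.69 TPM in HU-HSA-2 and between 29.06 and 45.87 TPM in HU-HSA-3. VWF, which encodes von Willebrand factor, stayed at or below 0.66 TPM in all 12 libraries. By RT-qPCR and western blot, however, the study reports endothelial markers in both lines, von Willebrand factor among them.

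Library totals were 10406166 to 13405159 expected counts. Replicate 1 of HU-HSA-3 at 0 mM stood apart from the other two libraries of its group by gene length: across 9869 genes, its deviation from the group mean had a Spearman correlation of -0.52 with effective length, against 0.39 and 0.44 in replicates 2 and 3 and -0.20 to 0.25 in the other 9 libraries. These correlations run across genes, which share a library and are not independent.

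The choice narrowed in HU-HSA-3 first and in HU-HSA-2 last. Of the 9916 genes above the floor, 160 had a D of at least 0.6 in HU-HSA-3, and in 129 of these the libraries at 0 and 25 mM did not overlap. In HU-HSA-2, 48 of the 129 had a D of at least 0.2, 25 had a D of -0.2 or less and 56 lay between these limits. One of the 56, MTHFD2, belongs to the stress-response genes treated apart below, which left the 55 members. Another 8 genes met both limits on D but had overlapping libraries in HU-HSA-3. The same limits with the direction or the lines exchanged selected 60 genes lower in HU-HSA-3, 48 higher in HU-HSA-2 and 13 lower in HU-HSA-2.

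**Figure D1:**
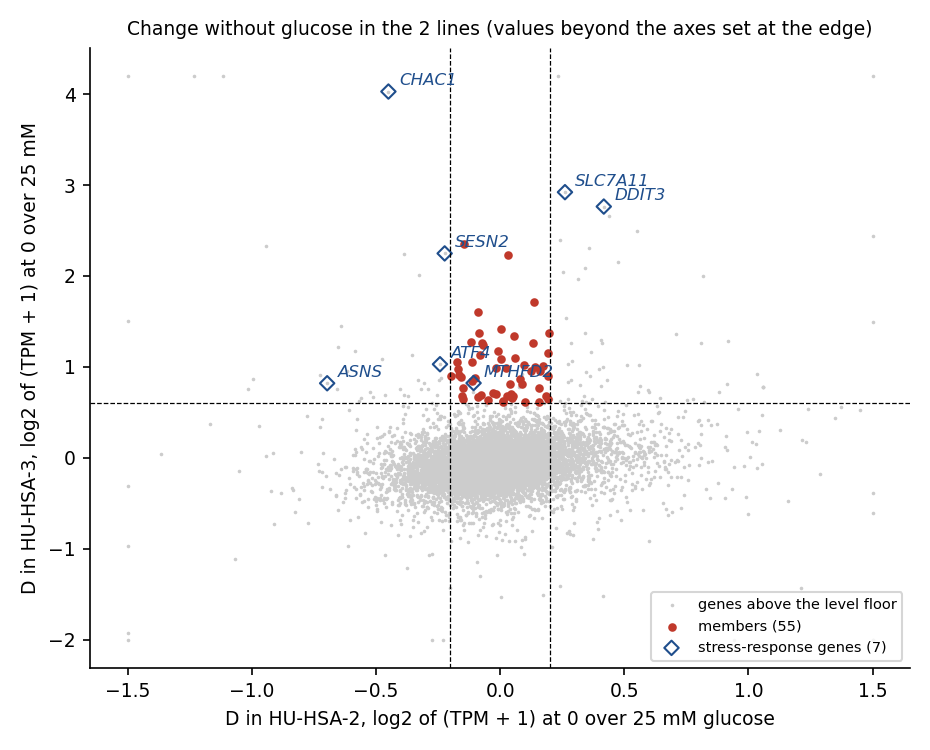
Change without glucose in HU-HSA-3 (vertical axis, D in log2 units) against HU-HSA-2 (horizontal axis, D in log2 units) for 9916 genes above the level floor, each point 1 gene and values beyond the axes set at the edge. The 55 members (filled red) fill the window between the dashed limits of -0.2 and 0.2 and above 0.6, while 6 of the 7 stress-response genes (open diamonds) lie outside that window.

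Members were raised in HU-HSA-3 by a median D of 0.91, with a range of 0.61 to 2.35, while the median D of all genes above the floor was -0.08. In TPM this was a median 1.99-fold increase (range 1.55 to 10.2), and the mean was at least 2-fold higher at 0 mM in 26 of the 55 members. Most increases were moderate: D lay between 0.6 and 0.8 in 19 members, between 0.8 and 1 in 15, between 1 and 1.5 in 17 and above 1.5 in 4. In HU-HSA-2 the median D was 0.01, with 30 members above 0 and 25 below. The member closest to the limit in HU-HSA-3 had a D of 0.610, and the nearest gene outside had 0.5996. In HU-HSA-2 the values next to the limits were 0.199 inside and 0.206 outside at the upper end, and -0.197 inside and -0.237 outside at the lower end. At the level floor they were 2.23 and 1.82 TPM. These values chose the members and carry no test.

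The summed level of the members is weighted toward the abundant ones. The member ranked 6th alone had a mean of 335 TPM at 25 mM and 869 TPM at 0 mM in HU-HSA-3. The rule fixes the rise of the sum in HU-HSA-3 and keeps its change in HU-HSA-2 small, so the sums describe the choice. In HU-HSA-3 at 25 mM the 55 members summed to 1848.61, 1850.76 and 1847.74 TPM in replicates 1 to 3, and at 0 mM to 3566.48, 3802.42 and 3711.39 TPM. In HU-HSA-2 the sum was 2827.42, 2910.51 and 2876.43 TPM at 25 mM and 3009.24, 3052.26 and 2796.89 TPM at 0 mM. The 6 libraries of HU-HSA-2 thus overlapped between glucose conditions and lay between the groups of HU-HSA-3. As a share of all TPM, the members took 0.185% in each HU-HSA-3 library at 25 mM and 0.357% to 0.380% at 0 mM. In bulk RNA, more RNA of a gene per cell and more cells that express it cannot be told apart.

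**Figure D2:**
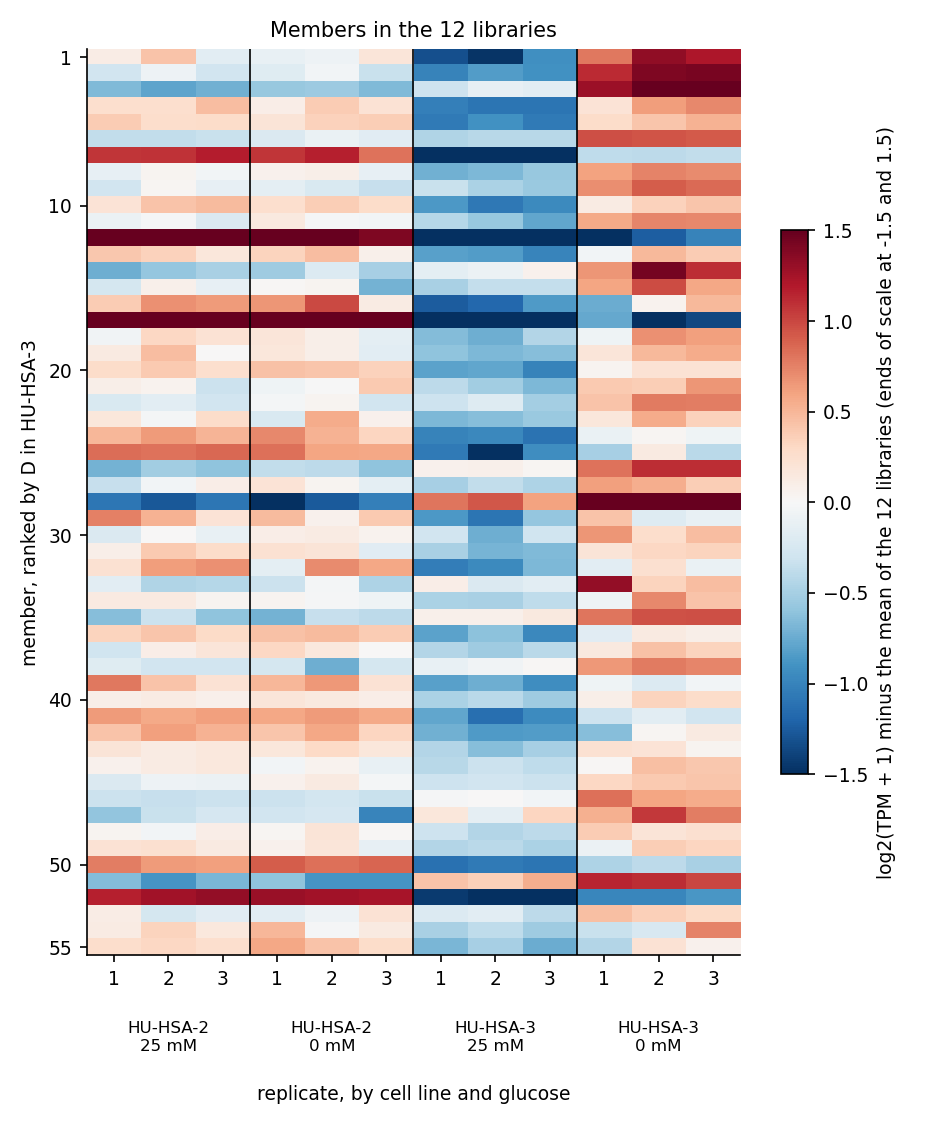
The 55 members (rows, ranked by D in HU-HSA-3) in the 12 libraries (columns, 3 replicates per cell line and glucose concentration), colored by log2(TPM + 1) minus the mean of the member over the 12 libraries, with values beyond -1.5 and 1.5 in the end colors. The 3 columns of HU-HSA-3 at 0 mM hold higher values than the 3 at 25 mM in all 55 members, as the rule requires (the end colors hide part of this in the darkest rows), and the rows differ in where HU-HSA-2 lies.

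The member with the largest increase was ENSCAFG00000029405. It measured 0.67, 0.51 and 1.21 TPM in HU-HSA-3 at 25 mM and 6.23, 9.53 and 8.71 TPM at 0 mM. In HU-HSA-2 it measured 3.51, 4.64 and 2.73 TPM at 25 mM and 2.87, 2.95 and 3.73 TPM at 0 mM. The level of HU-HSA-2, which overlapped between the glucose conditions, lay above HU-HSA-3 at 25 mM and below it at 0 mM. These values rest on few reads, with 3, 2 and 5 expected counts in HU-HSA-3 at 25 mM and 28, 42 and 42 at 0 mM. The fitted log2 fold change of the counts was 3.43 (SE 0.35) in HU-HSA-3 and -0.16 (SE 0.34) in HU-HSA-2.

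The second was ENSCAFG00000002169, at a higher level and with less spread. In HU-HSA-3 it measured 10.86, 12.26 and 11.60 TPM at 25 mM and 50.35, 61.35 and 62.32 TPM at 0 mM. In HU-HSA-2 it measured 18.44, 21.48 and 18.41 TPM at 25 mM and 19.89, 22.02 and 17.75 TPM at 0 mM. As with the first member, the libraries of HU-HSA-2 overlapped and lay between the groups of HU-HSA-3. The log2 fold change was 2.42 (SE 0.09) in HU-HSA-3 and 0.05 (SE 0.10) in HU-HSA-2.

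The member ranked 6th had the highest level in HU-HSA-3, with a mean of 602 TPM over its 6 libraries. It rose from 328.37, 338.68 and 338.90 TPM at 25 mM to 885.35, 871.95 and 851.05 TPM at 0 mM. In HU-HSA-2 it went from 349.31, 349.72 and 356.39 TPM at 25 mM to 388.64, 422.29 and 400.91 TPM at 0 mM. Here the groups did not overlap in either line, and the increase in HU-HSA-2 was near the upper limit of the window (D of 0.199, against 1.37 in HU-HSA-3).

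**Figure D3:**
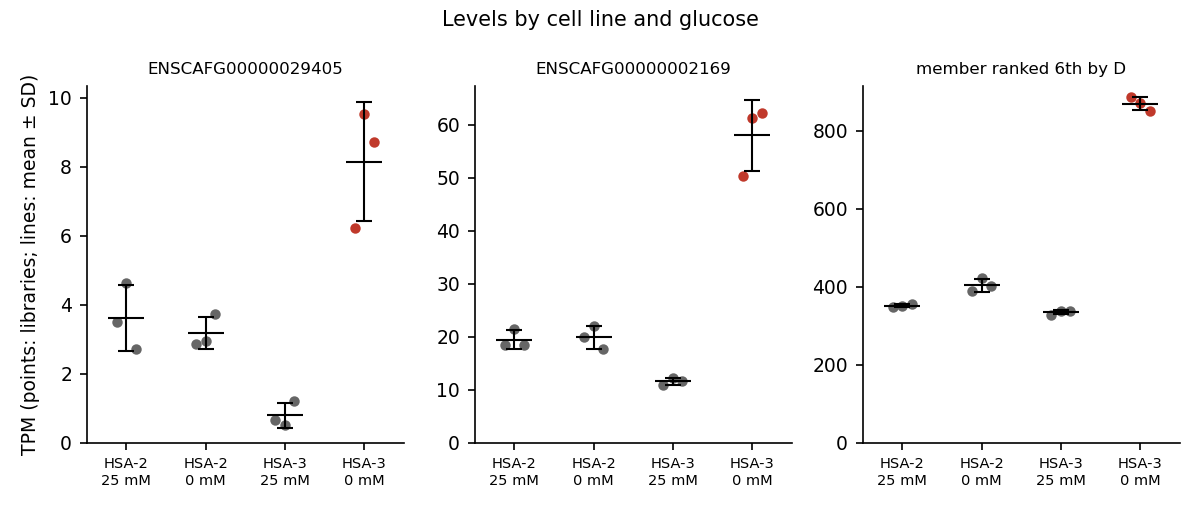
TPM of ENSCAFG00000029405, ENSCAFG00000002169 and the member ranked 6th in D by cell line and glucose concentration (HSA-2 and HSA-3 stand for HU-HSA-2 and HU-HSA-3), with points for the 3 libraries of each group and lines for the mean ± SD. In each panel the HU-HSA-3 libraries at 0 mM (red) lie above the 9 other libraries.

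Counts were compared in edgeR by the quasi-likelihood test, with p-values adjusted over all genes tested by the Benjamini-Hochberg method. In HU-HSA-3, 54 members passed the filter on low counts and 51 of them were called higher at 0 mM (3.67% of the tested genes above the floor were) and 0 lower (background 2.09%). Their median log2 fold change was 1.11, with a range of 0.37 to 3.43. Since the same contrast chose the members, nothing is read from these counts except which members the counts did not carry.

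Those were the members ranked 16th, 17th, 29th and 54th. The 16th, with an effective length of 0.026 of that of the median gene, was not tested: it had 2, 1 and 2 expected counts at 25 mM and 4, 4 and 6 at 0 mM, which the short length turned into 7.90, 8.36 and 10.73 TPM and 11.59, 20.97 and 28.67 TPM. The 17th went from 17.30, 13.30 and 9.05 TPM to 39.49, 22.68 and 25.75 TPM. The 29th, whose effective length was 0.032 of the median, went from 40.96, 34.68 and 50.14 TPM to 101.92, 65.89 and 69.65 TPM. In both, replicate 1 at 0 mM was the highest of the group. The 54th went from 1.82, 2.02 and 1.73 TPM to 2.14, 2.33 and 5.61 TPM, so that replicate 3 carried most of its D. Its expected counts were 62, 63 and 55 at 25 mM and 67, 74 and 92 at 0 mM.

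In HU-HSA-2, 2 of 55 members were called higher at 0 mM (background 7.79%) and 0 lower (background 6.28%), with a range of log2 fold changes of -0.17 to 0.26. The window on D kept these values small. The members called were the 6th, described above, and the 45th, which measured 241.14, 264.19 and 263.47 TPM at 25 mM and 292.72, 307.37 and 273.54 TPM at 0 mM. All 3 HU-HSA-2 libraries at 0 mM lay above all 3 at 25 mM in 4 members (12.7% of the genes above the floor) and below them in 1 member (18.2%), while 50 members overlapped. For the difference between the responses of the lines, fitted over all 12 libraries, 48 of 55 members were called higher in HU-HSA-3 (background 2.83%) and 0 lower (background 2.64%), with a median of 1.06 and a lowest value of 0.44 on the log2 scale. The members not called were the 16th, 29th, 30th, 47th, 53rd, 54th and 55th, most of them near the lower end of D. The rule set both responses, so this count describes how well the counts carry a choice made on TPM.

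The rule set no limit on the difference in level between the 2 lines, but it used values from the same libraries. At 25 mM glucose, HU-HSA-3 held lower levels of most members. By the fit over all 12 libraries, 37 of 55 were lower in HU-HSA-3 (67.3%, against a background of 33.2%) and 9 were higher (16.4%, against 40.3%). Their median log2 difference was -0.58, while that of the genes above the floor was 0.07. At 0 mM the order turned: 35 of 55 were higher in HU-HSA-3 (63.6%, against 40.5%) and 12 were lower (21.8%, against 31.7%), with a median of 0.54 beside 0.08 for the genes above the floor. The balance between the lines moved with the processing. Over all genes tested, 4422 were higher and 4669 lower in HU-HSA-3 at 25 mM, and 4412 and 4540 at 0 mM. Upper-quartile normalization, which changes the scaling alone, gave 3895 and 5160 genes at 25 mM and split the members into 9 higher and 39 lower at 25 mM and 32 higher and 14 lower at 0 mM. With limma on log2(TPM + 1), which changes the unit, the test and the filter together, 3304 genes were higher and 5250 lower at 25 mM and 2935 and 5485 at 0 mM. The members then split into 8 higher and 41 lower at 25 mM and 25 higher and 14 lower at 0 mM. Because the 2 responses were chosen to differ, the shift from 25 to 0 mM follows from the rule. The values of HU-HSA-3 at 25 mM are the denominator of D, so low values there favor the choice of a gene. The counts at 25 mM are therefore a description, and how far the choice set the starting level was not tested.

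Members differed in where the increase took them. In 17 of 55 (30.9%) HU-HSA-3 was lower at 25 mM and higher at 0 mM, a pattern found in 0.527% of the tested genes above the floor. The rule favors an upward shift of HU-HSA-3 against HU-HSA-2, so this share and the others by pattern are descriptions. The group of 17 held both ENSCAFG00000029405, with log2 differences of -2.09 (SE 0.43) at 25 mM and 1.504 (SE 0.27) at 0 mM, and ENSCAFG00000002169, with -0.58 (SE 0.10) and 1.78 (SE 0.09). Both were the members with the largest D, so these values are given without a test. In 8 members (14.5%, against 5.08% of those genes) HU-HSA-3 was lower at 25 mM and no difference was called at 0 mM, which does not show that the levels were equal.

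In 12 members (21.8%, against 27.6% of the tested genes above the floor) HU-HSA-3 was lower in both conditions, a share no higher than the background, by a median log2 difference of -1.99 at 25 mM and -0.97 at 0 mM. The widest gap at 25 mM was that of the 12th member (-5.23), which measured 37.78, 39.16 and 41.68 TPM in HU-HSA-2 at 25 mM and 49.54, 35.97 and 27.33 TPM at 0 mM. In HU-HSA-3 it measured only 1.05, 0.70 and 1.02 TPM at 25 mM and 2.73, 3.54 and 4.32 TPM at 0 mM. The increase in HU-HSA-3 thus left it far below every library of HU-HSA-2. At 0 mM its log2 difference was -3.17. The 17th and 52nd members were also lower in HU-HSA-3 in both conditions, with log2 differences of -4.67 and -2.74 at 25 mM and -3.20 and -2.02 at 0 mM.

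In 9 members (16.4%, against 4.97%) no difference between the lines was called at 25 mM and HU-HSA-3 was higher at 0 mM, the 6th and 45th among them. In the last 9 members (16.4%, against 35.0%, a share below the background) HU-HSA-3 was higher in both conditions, by a median of 0.80 at 25 mM and 1.80 at 0 mM on the log2 scale. The 28th had the widest gap of these, with 7.76, 6.71 and 7.78 TPM in HU-HSA-2 at 25 mM and 4.66, 6.73 and 8.11 TPM at 0 mM. In HU-HSA-3 it measured 31.25, 34.49 and 27.23 TPM at 25 mM and 59.51, 56.57 and 61.60 TPM at 0 mM. The 3rd member was also higher in HU-HSA-3 in both conditions, with 18.04, 16.37 and 17.23 TPM in HU-HSA-2 at 25 mM and 19.32, 19.69 and 18.00 TPM at 0 mM. It rose in HU-HSA-3 from 23.26, 26.72 and 25.96 TPM to 72.27, 96.22 and 88.31 TPM. Across all members, the group with the lowest mean TPM was HU-HSA-3 at 25 mM in 45 of 55 (19.4% of the genes above the floor), and the group with the highest was HU-HSA-3 at 0 mM in 35 of 55 (13.4%). The rule places HU-HSA-3 at 0 mM above HU-HSA-3 at 25 mM in every member, so much of this order was fixed by the choice.

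**Figure D4:**
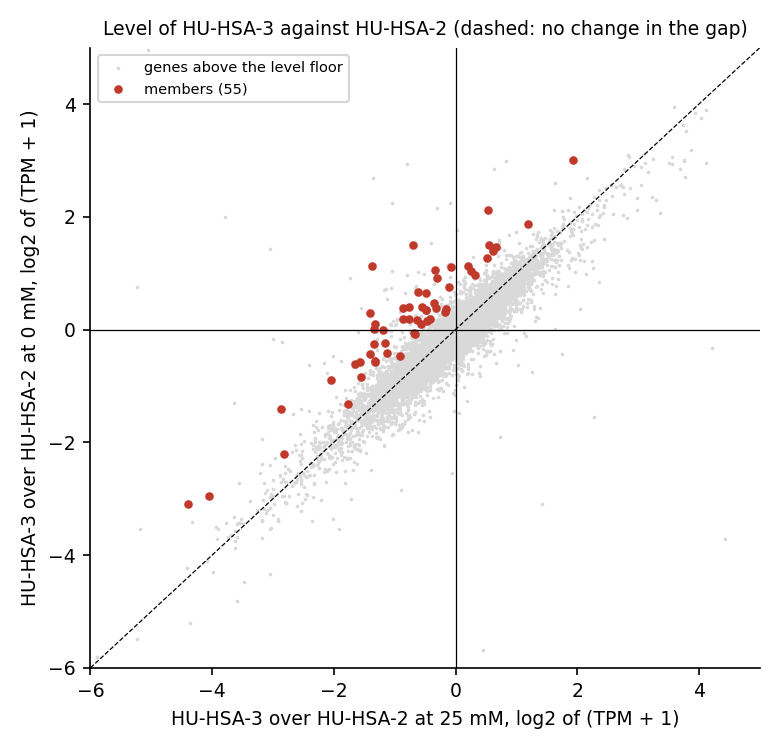
Level of HU-HSA-3 relative to HU-HSA-2 at 25 mM (horizontal axis) and at 0 mM glucose (vertical axis), both as the log2 ratio of mean TPM plus 1, for the 55 members (red) and the genes above the level floor (gray). All members lie above the dashed line of equal ratios, which the rule fixes, and 26 of 55 pass from below 0 at 25 mM to above 0 at 0 mM, as do 434 of the 9916 genes above the floor. The limits on D in both lines favor this crossing.

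The other genes raised in HU-HSA-3 by the same limits differed in their level at 25 mM, where 33.2% of the tested genes above the floor were lower and 40.3% higher in that line. Of the 48 such genes whose D in HU-HSA-2 was at least 0.2, 24 were lower in HU-HSA-3 at 25 mM and 12 were higher. Of the 25 whose D in HU-HSA-2 was -0.2 or less, 22 were lower and 0 were higher. Without the stress-response genes among them, these counts were 23 of 46 and 20 of 21. The share of the members, 37 of 55, lay between those of these groups, and the differences between the groups were not tested.

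Stress-response genes gave a measure of how the members stood beside a known program. The 7 genes were taken from the study, which followed them in these cells, so the direction of the list is not independent evidence. All 7 were called higher at 0 mM in HU-HSA-3 in the same edgeR fit (background 3.67%). Their median log2 fold change was 2.65, beside 1.11 for the members tested. CHAC1, which degrades glutathione, had a D of 4.03 in HU-HSA-3 and -0.45 in HU-HSA-2. SLC7A11, the cystine transporter, had 2.92 and 0.26, and DDIT3, which encodes the transcription factor CHOP, had 2.76 and 0.42. SESN2, a stress-inducible inhibitor of mTORC1, had 2.248 and -0.22.

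The other 3 of the 7 changed by amounts closer to the median member. ATF4 had a D of 1.03 in HU-HSA-3 and -0.24 in HU-HSA-2, and ASNS, which makes asparagine, had 0.82 and -0.70. MTHFD2, a mitochondrial enzyme of folate metabolism, was the gene of the 7 that met every limit, with 64.51, 61.47 and 63.87 TPM in HU-HSA-3 at 25 mM and 107.51, 113.13 and 117.29 TPM at 0 mM. In HU-HSA-2 it measured 103.00, 95.62 and 103.44 TPM at 25 mM and 92.45, 94.64 and 93.22 TPM at 0 mM, where every library was below those at 25 mM. In HU-HSA-2, 1 of the 7 was called higher without glucose and 3 lower. Between the lines, 4 of the 7 were lower (background 33.2%) and 0 higher (40.3%) in HU-HSA-3 at 25 mM. At 0 mM all 7 were higher in HU-HSA-3 (background 40.5%).

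Members were not an abundant or a long class. Their median TPM was 17.3 in HU-HSA-3 and 21.0 in HU-HSA-2, compared with 25.0 and 28.3 for the genes above the floor, and individual members ranged from 2.23 to 602 TPM in HU-HSA-3 and from 2.92 to 378 TPM in HU-HSA-2. Effective length, relative to the median gene, had a median of 0.754 in members and 0.945 in the genes above the floor. Expected counts of members lay between 1 and 8466, and 4 members had a count under 10 in at least 1 library. Only 2 of 55 members (3.64%, against 5.81%) had expected counts that were not whole numbers, which arise where reads are shared between genes. They were the 27th, in 1 library, and the 33rd, in all 12, and their values depend on how those reads were divided.

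The libraries of each group set how sharply the members could be told from their neighbors. The lowest value at 0 mM was 1.04 to 5.15 times the highest at 25 mM in HU-HSA-3, with a median of 1.57, and it was at least 1.5 times in 32 of 55 members. The median SD between replicates of log2 CPM (counts scaled by library total) over the members was 0.138 in HU-HSA-3 at 0 mM and 0.120 at 25 mM, and 0.130 and 0.103 in HU-HSA-2. Replicate 1 of HU-HSA-3 at 0 mM was the lowest of its group in 21 of 55 members (38.2%, against 42.6% of genes above the floor) and the highest in 20 (36.4%, against 42.6%). Its median difference from replicates 2 and 3 was -0.01 in log2 CPM over the members and 0.00 over the genes above the floor, but -0.19 and -0.15 in log2(TPM + 1). Without that library, 51 of 55 members kept a D of at least 0.6, with a median of 0.94, and when the trend on gene length was removed from each library, the counts called 52 members higher in HU-HSA-3.

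The rule was sensitive to single libraries. When each of the 12 libraries was left out in turn, 45 to 69 genes met the rule, of which 41 to 54 were among the 55 members. Of the members, 20 met the rule in all 12 of these versions, and the member that did so least often met it in 7.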

How the data were processed

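The 12 libraries form 4 groups of 3 by cell line and glucose, as the sample labels give them. The authors deposited RSEM expected counts (unnormalized) and TPM values for each line, after mapping to CanFam3.1 with STAR. The submitters' processing notes name edgeR 3.42.0, and versions of STAR and RSEM are not given in the sources used here. TPM carry no depth, so precision was judged from the counts.

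Members and lists were chosen with earlier results of these data known. The naming rule gave identifiers for the 2 members with the largest D in HU-HSA-3, any member with a symbol and the stress-response genes; other members described by rank were picked after their values were seen. The reference gene table (UU_Cfam_GSD_1.0) holds no Ensembl identifiers, so names of other genes come from the primer table of the study. One result is not reported here.

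Expected counts were rounded and fitted in R 4.3.3 with edgeR 4.0.16 (filterByExpr, TMM, quasi-likelihood test, adjusted p under 0.05), each line on its 6 libraries and contrasts between lines on all 12. The SE is the log2 fold change divided by the square root of F. Log2 CPM used a prior count of 2. Effective length was derived by dividing counts of 10 or more by TPM. Whole numbers were judged within 1e-06. Alternatives used limma 3.58.1, DESeq2 1.42.0, other scalings, filters and limits, a replicate block and each library left out. Another 2 were added after seeing the data: an edgeR call in place of no overlap, and removal of each library's trend on effective length (loess span 0.3). The scripts were tested on simulated data. No 2 replicates held identical values. Same-numbered libraries at 0 and 25 mM had deviations from their group means that correlated at -0.02, 0.12 and -0.05 (HU-HSA-2) or 0.21, 0.15 and -0.08 (HU-HSA-3), so the numbers were not taken to pair them.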

Additional observations from a re-analysis of the deposited data

Results flagged for a closer look

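The responses of the 2 lines differed by edgeR's quasi-likelihood test of the difference in 48 of 55 members. By that test, 279 of the 9869 tested genes above the floor were called higher in HU-HSA-3 (2.83%) and 261 lower (2.64%). The difference was 3.60 on the log2 scale for ENSCAFG00000029405 and 2.36 for ENSCAFG00000002169, with HU-HSA-3 the higher in both. The members were selected for this difference, so the values are a description and carry no independent test.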

How the results depend on the processing

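Without glucose, 626 genes (400 higher, 226 lower) were called in HU-HSA-3, and 1583 in HU-HSA-2. For the first of these it was 384 (198 higher, 186 lower) by limma on log2(TPM + 1), 366 on log2(TPM + 0.1), 1030 with the length trend removed and 1153 with all 12 libraries in one fit. With single libraries left out it ran from 231 to 2027: 236, 256 and 231 without replicates 1, 2 and 3 at 25 mM, 2027 without replicate 1 at 0 mM and 319 without replicate 2 at 0 mM. In HU-HSA-2 the number was 870 and 845 by the limma fits and 907 to 1582 with single libraries left out (920 and 907 without replicates 2 and 3 at 25 mM). The cause was not tested. The difference between responses was called in 579 genes (297 higher, 282 lower, but 389 and 437 with no filter on low counts), in 370 by limma on log2(TPM + 0.1), and in 386 to 852 with single libraries left out.

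Among members, 42 to 53 were called in HU-HSA-3 and 37 to 50 for the difference under the alternatives run. The 2 members called in HU-HSA-2 were 1 in both limma fits and 1 to 3 with single libraries left out (1 without replicate 2 at 25 mM). With a replicate block, 713 genes were called in HU-HSA-3, 1452 in HU-HSA-2 and 502 for the difference, and 53, 2 and 49 members. The rule selected 36 genes with D of at least 0.8, 28 with a window of 0.1, and 45 to 73 under the other alternatives. Replicate 1 of HU-HSA-3 at 0 mM differed from replicates 2 and 3 by a median of -0.01 over members in log2 CPM and -0.19 in log2(TPM + 1). In HU-HSA-2, where neither was called, the log2 fold change of ENSCAFG00000029405 went from -0.16 to 0.04 without replicate 2 at 25 mM, and that of ENSCAFG00000002169 from 0.05 to -0.01 without replicate 2 at 0 mM. Between the lines, upper-quartile normalization called 3895 genes higher and 5160 lower in HU-HSA-3 at 25 mM, and 3934 and 4991 at 0 mM. Low counts limit the 16th and 29th members, among others.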
